A study of Mus musculus with 28 samples.

Results

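The genes described here carry the names of the subunits of mitochondrial respiratory chain complexes I to V. The rule reads symbols and not measured values, and takes every named gene on the arrays numbered 309 and above whose symbol starts with Nduf (complex I), Uqcr (complex III), Cox4 to Cox8 (complex IV) or Atp5 (complex V, the ATP synthase), or is Sdha, Sdhb, Sdhc or Sdhd (complex II). The rule found 57 of 8726 named genes, of which 27 belonged to complex I, 1 to complex II, 6 to complex III, 14 to complex IV and 9 to complex V. Of these, 56 had 1 probe each, and Ndufb4 had 2.

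Complexes I and II take electrons from NADH and from succinate and pass them through ubiquinone to complex III, cytochrome c and complex IV, which reduces oxygen. Complexes I, III and IV pump protons across the inner mitochondrial membrane, and complex V uses the gradient to make ATP. Neurons depend heavily on this route for their ATP, and the midbrain holds dopamine neurons, which inhibitors of complex I are known to kill.

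Midbrain RNA of male Balb/c mice, 8 weeks old, was compared on printed oligonucleotide arrays carrying both samples in different dyes. In each pair, the tumour-bearing mice had received 1000000 cells of the colon carcinoma line CT-26.WT under the skin in 300 µl of phosphate-buffered saline (PBS), and the other sample came from mice given the same volume of PBS alone. The mice were killed 18, 72 or 192 h later, and the tumour-bearing sample was paired with the PBS sample of the same time. The value of a gene is the log2 ratio of tumour over PBS, so that 0 means equal RNA and 1 means a ratio of 2. The 21 arrays used held 11 biological replicates, of which 5 came from 18 h, 2 from 72 h and 4 from 192 h. Replicates 1 and 2 at 18 and 192 h were polyA RNA, each in a single dye orientation (tumour in Cy5 in replicate 1 and in Cy3 in replicate 2), and the other 7 were total RNA hybridised in both orientations. The labels do not say whether a replicate was 1 mouse or a pool, so p-values measure the spread between these samples, which may be technical.

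Of the genes the rule found, 50 passed the filters and were tested, among 4412 genes in all, and 39 of them had a value in all 11 replicates. Cox6a2 and Cox7a1, isoforms of heart and skeletal muscle, and Ndufa3 were among the dimmest genes, and Atp5mpl, Atp5j2, Cox4i1 and Ndufaf7 had too few values, as had Cox6a2 and Cox7a1. The symbols also take in genes that are not subunits: Ndufaf1 to Ndufaf5 and Ndufaf7 are assembly factors of complex I, Cox7a2l acts in the joining of complexes III and IV, and Ndufs5-ps is annotated as a pseudogene, and whether its probe also reads the parent gene was not tested. Ndufa4 is named for complex I but is now placed in complex IV. Of the markers of midbrain dopamine neurons, Pitx3 and Lmx1b had a value on all 21 arrays and Th, which makes the dopamine precursor, on 19. Ddc and En2 had one on 14 arrays, Nr4a2 on 15 and En1 on 16, and these 4 and Th were dimmer than most named genes, while Slc6a3, Slc18a2, Foxa1, Foxa2 and Aldh1a1 were not among the named probes. In whole tissue, fewer cells of a type and less RNA per cell cannot be told apart.

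No respiratory chain gene passed an adjusted p of 0.05 at any time or in any difference between times, and neither did any other gene, so the background share of calls was 0% in each comparison (limma with Benjamini-Hochberg adjustment over 4412 genes). Among the respiratory chain genes the lowest adjusted p was 0.929 in the earliest group, 0.519 at 72 h and 0.999 in the latest. At an unadjusted p of 0.05, 105 of the 4412 genes lay higher and 90 lower 18 h after injection, 235 and 151 after 72 h, and 29 and 19 after 192 h. None of the last group was a respiratory chain gene, with backgrounds of 0.657% higher and 0.431% lower. Fitted values of the respiratory chain genes ran from -0.17 to 0.33 (18 h), from -0.50 to 0.51 (72 h) and from -0.28 to 0.14 (192 h). The 95% interval of a single gene reached a median of 0.22, 0.34 and 0.24 to either side at these times, on the log2 scale, so ratios closer to 0 than this could not be told from 0 for a typical gene. These intervals rest on 5, 2 and 4 replicates, and the number of arrays limits the precision. The spread of a gene was estimated jointly over all times. An SE or p at 72 h therefore does not measure the spread of its 2 replicates alone.

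The genes lay on both sides of 0, with more above it at 18 h and more below it at 192 h. At 18 h, 33 of the 50 genes had a fitted value above 0, where the background was 49.8% of all genes tested, and their median log2 ratio was 0.054 against -0.00051 for all genes. At 72 h it was again 33 of 50, against a background of 59.1%, with a median of 0.087 against 0.052. With all 28 arrays that median was -0.0085, on the other side of 0. The 7 arrays added there had Spearman correlations of only 0.023 to 0.15 with the later arrays in brightness by gene. The value with all 28 arrays therefore cannot decide the sign. At 192 h, 13 of 50 lay above 0, against a background of 48.9%, with a median of -0.030 against -0.0036. The median of the respiratory chain genes at 18 h was 0.068, 0.012, -0.014, 0.0018 and 0.043 in replicates 1 to 5, at 72 h it was 0.061 and 0.042 in replicates 3 and 4, and at 192 h it was 0.0067, -0.082, -0.10 and 0.011 in replicates 1 to 4. Replicates of the 2 outer times therefore overlap, and at 192 h the low medians lie in replicates 2 and 3 while replicates 1 and 4 sit near 0. Without replicate 3 at 192 h, 21 of 49 genes lay above 0. Without replicate 1 at 18 h the median there was 0.011, with 26 of 48 genes above 0.

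**Figure D1:**
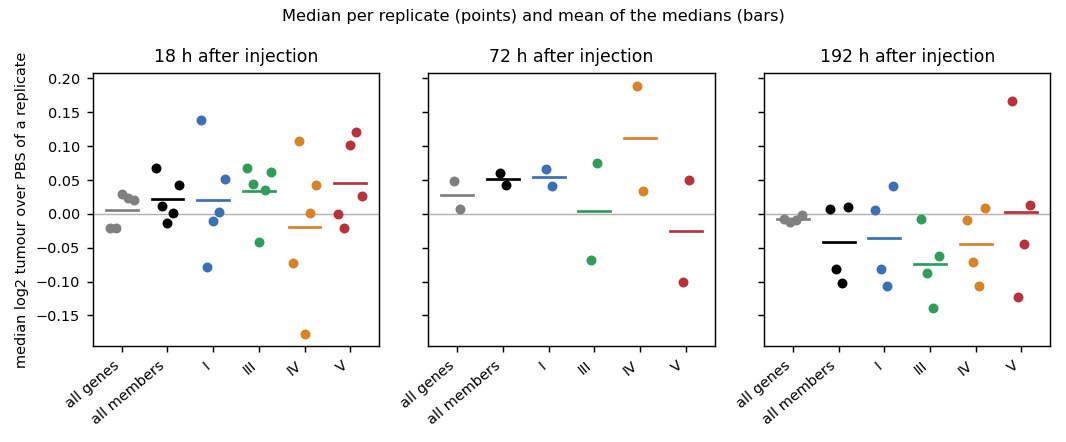
Median log2 tumour over PBS in each replicate (points) for all genes tested, all respiratory chain genes and complexes I, III, IV and V, with the mean of the replicate medians as a bar, at 18, 72 and 192 h. Complex II is left out because Sdhd alone stands for it. The points of each complex spread to both sides of 0 at 18 h. At 192 h the 4 medians of complex III all lie below 0. Its medians on single arrays at 192 h ran from -0.0069 to 0.089 with tumour in Cy5. With tumour in Cy3 they ran from -0.23 to -0.10.

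By complex, the median at 18 h was 0.027 over the 25 genes of complex I and 0.072 over the 6 of complex III. It was 0.062 over the 11 of complex IV and 0.022 over the 7 of complex V. At 192 h the corresponding medians were -0.032, -0.052, -0.042 and -0.029. At 72 h they were 0.081, 0.055, 0.17 and -0.0079, and 9 of the 11 genes of complex IV lay above 0, against a background of 59.1%. The 25 genes of complex I include 5 assembly factors, which had a median of -0.035 at 18 h. The 20 others had a median of 0.060 at that time. The median of complex IV at 72 h was 0.19 in replicate 3 and 0.034 in replicate 4. It was 0.30 with median centring in place of loess, and 0.0099 in the authors' processed log ratios, whose base is unknown. With all 28 arrays the medians at 72 h were -0.0138 for complex I and -0.0077 for complex IV. These too include the 7 arrays of low brightness correlation and cannot decide the sign. The 4 medians of complex III at 192 h were -0.0069, -0.087, -0.14 and -0.062, all below 0. On single arrays at 192 h its medians were -0.0069, 0.046 and 0.089 with tumour in Cy5. With tumour in Cy3 they were -0.10, -0.11, -0.23 and -0.12. At 18 h the medians of complex III in replicates 1 to 5 were 0.068, 0.044, -0.042, 0.035 and 0.062. For complex IV the 5 replicates at 18 h gave -0.073, 0.11, -0.18, 0.0017 and 0.043, a spread wider than the distance between the times. The median over all 4412 genes tested lay between -0.022 and 0.029 in the replicates at 18 h and between -0.012 and -0.0021 in those at 192 h.

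**Figure D2:**
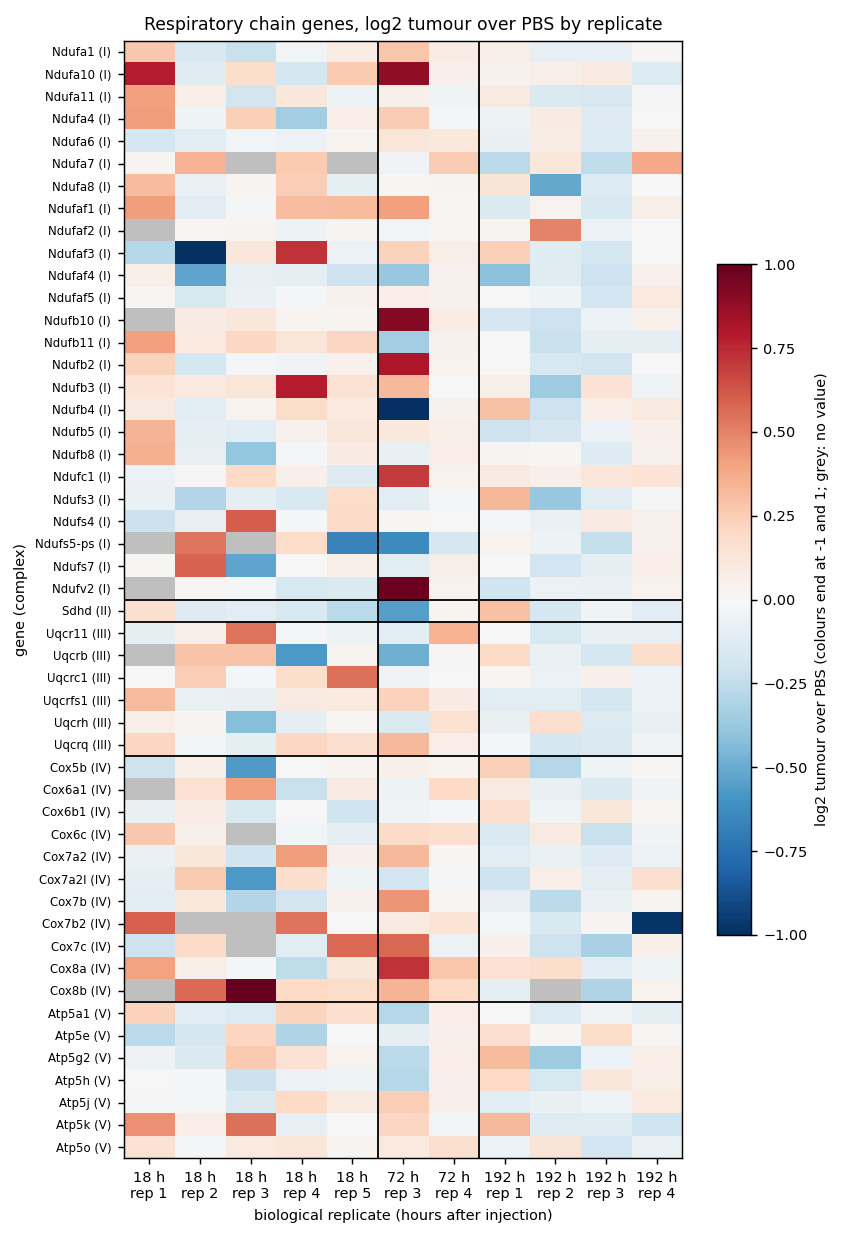
Log2 tumour over PBS of the 50 tested respiratory chain genes (vertical axis, ordered by complex) in the 11 replicates (horizontal axis), with grey for no value and colours ending at -1 and 1. The strongest colours lie in single cells, and many of them in replicate 3 at 72 h, where 10 genes exceeded 0.5 in size, against 0 in replicate 4.

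Complex I, which oxidises NADH, held the genes with the smallest p at 18 h. Ndufb11, an accessory subunit of the membrane arm encoded on the X chromosome, had log2 ratios of 0.41, 0.094, 0.21, 0.12 and 0.22 in the 5 replicates at 18 h, of -0.35 and 0.042 at 72 h, and of 0.0056, -0.22, -0.092 and -0.098 at 192 h. All replicates at 18 h lay above all at 192 h. On single arrays at 192 h, Ndufb11 had 0.0056, 0.016 and 0.035 with tumour in Cy5. With tumour in Cy3 it had -0.24, -0.20, -0.20 and -0.23. At 18 h its arrays ran from -0.015 to 0.41 in Cy5 and from 0.013 to 0.26 in Cy3. The part of the dye in these values was not tested beyond the dye term in the fit. The fitted value was 0.21 at 18 h (SE 0.082, n = 5, unadjusted p = 0.0256) and -0.10 at 192 h (SE 0.092, n = 4), and the difference of -0.31 (SE 0.12) had an unadjusted p of 0.0269 and an adjusted p of 1.00 over all genes. Of the 39 respiratory chain genes with a value in every replicate of both times, Ndufb11 was the 1 whose 18 h replicates all exceeded those at 192 h, where the background was 0.529% of genes, and 0 had the reverse, where it was 0.308%. Leaving out each replicate in turn gave 0.19 to 0.23 for Ndufb11 at 18 h and -0.33 to -0.29 for the difference. In the authors' own processed log ratios, whose base is unknown, the corresponding values were 0.051 and -0.054.

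Ndufb3, another membrane arm subunit, was the second gene above 0 in all 5 replicates at 18 h, with 0.14, 0.094, 0.12, 0.79 and 0.15. These 2 were of 39 genes with a value in all 5 replicates, and the background for all replicates above 0 was 2.30%. Replicate 4 of Ndufb3 stands far above the others, and without it the fitted value of 0.26 (SE 0.12, unadjusted p = 0.0459, adjusted p = 0.929) became 0.13. In replicate 4 at 18 h Ndufb3 read 0.16 on array 523, with tumour in Cy5, and 1.41 on array 524, with tumour in Cy3. At 192 h Ndufb3 had 0.056, -0.36, 0.14 and -0.033, values on both sides of 0.

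Ndufaf1, an assembly factor needed to build complex I, had 0.42, -0.10, -0.014, 0.31 and 0.32 at 18 h, a fitted value of 0.21 (SE 0.096, unadjusted p = 0.0468). It was 1 of 3 respiratory chain genes above 0 at an unadjusted p of 0.05 at that time, where the background was 2.38% of genes, and 0 lay below, where it was 2.04%. Its value at 192 h was -0.049, from replicates of -0.14, 0.038, -0.15 and 0.059, and the difference of -0.26 (SE 0.14) had an unadjusted p of 0.0915. Ndufaf4, another assembly factor, had 0.057, -0.53, -0.081, -0.096 and -0.21 at 18 h and -0.41, -0.12, -0.21 and 0.045 at 192 h. Its fitted values were the lowest of complex I at both times, -0.17 at 18 h (SE 0.11, n = 5) and -0.17 at 192 h (SE 0.12, n = 4), and the interval of each held 0. Ndufaf2, which also acts in assembly, had 0.027, 0.49, -0.058 and 0.0044 at 192 h. A single replicate carried its fitted value of 0.12, the highest of complex I at that time among genes with all 4 replicates. Without replicate 2 the value was -0.015.

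Ndufa8, an accessory subunit, had 0.12, -0.51, -0.14 and -0.0064 at 192 h, with a fitted value of -0.13 (SE 0.094, n = 4). Ndufc1, a small membrane arm subunit, lay above 0 in all 4 replicates at 192 h, with 0.086, 0.047, 0.12 and 0.14. It was 1 of 2 among the 49 respiratory chain genes with all 4 values at 192 h, where the background for all replicates above 0 was 3.19%. The catalytic subunits measured, which carry iron-sulphur centres or line the path of electrons in the arm that binds NADH, gave no value past the test. Ndufs7 had fitted values of 0.027 at 18 h and -0.054 at 192 h, Ndufs3 had -0.085 and -0.044, and Ndufv2 had -0.074 and -0.073. Ndufs4, whose loss in the mouse causes a fatal brain disease, had 0.081 and 0.014.

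At 72 h the large values lay in 1 of the 2 replicates. Ndufv2, a subunit of the NADH-oxidising end of complex I, had 0.98 in replicate 3 and 0.034 in replicate 4. Ndufb10 had 0.92 and 0.074, Ndufb2 had 0.81 and 0.033, and Ndufa10 had 0.89 and 0.048. The same replicate held array 447, 1 of its 2 arrays, on which Ndufv2 read 1.88 against 0.082 on the other, Ndufb10 1.51 against 0.32 and Ndufb2 1.21 against 0.40. The fitted values at 72 h were 0.51 for Ndufv2 (SE 0.19, n = 2, unadjusted p = 0.0212) and 0.50 for Ndufb10 (SE 0.18, n = 2, unadjusted p = 0.0184), both with an adjusted p of 0.519. Without array 447 they were 0.089 and 0.18. The 2 replicates at 72 h had a standard deviation of 0.67 for Ndufv2 and 0.60 for Ndufb10. Each SE rests on a spread shared by all times. In the authors' processed log ratios Ndufv2 was -0.020, on the other side of 0. For the differences between times, Ndufv2 had 0.58 (SE 0.23) for 72 h minus 18 h, and Ndufb10 had -0.59 (SE 0.22), Ndufv2 -0.58 (SE 0.23) and Ndufb2 -0.51 (SE 0.20) for 192 h minus 72 h. The lowest adjusted p of a respiratory chain gene was 0.719 in the first of these differences and 0.724 in the second.

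Ndufb4 went the other way in the same replicate. It had -1.04 in replicate 3 and 0.043 in replicate 4 at 72 h, with a fitted value of -0.50 (SE 0.20) and a difference from 18 h of -0.56 (SE 0.24, unadjusted p = 0.0352, adjusted p = 0.719). Its 2 probes did not give the same result. One read -4.08 in replicate 3 and had no value in replicate 4, and the other read 0.061 and 0.043. Over both probes, replicate 3 read -1.88 on array 445 and -0.20 on array 447. For the second probe alone the difference was 0.0425. The low value thus rested on 1 probe in 1 replicate, and mainly on array 445.

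**Figure D3:**
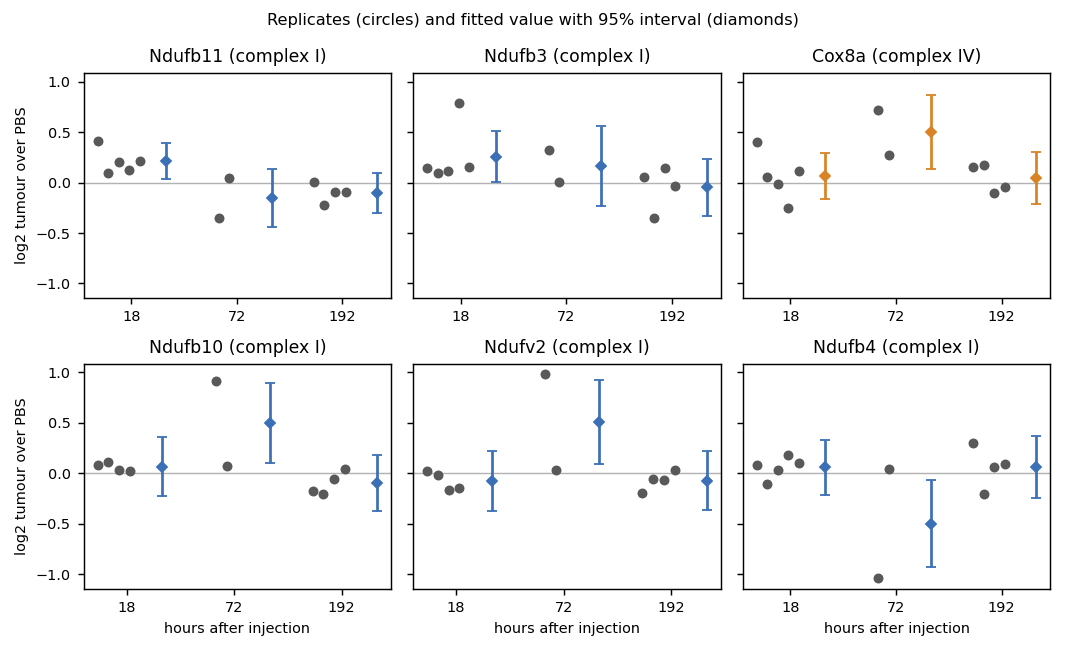
Log2 tumour over PBS of 6 genes against hours after injection, with each replicate as a circle and the fitted value with its 95% interval as a diamond. Ndufb11 has all 5 circles at 18 h above all 4 at 192 h. At 192 h its single arrays lay above 0 with tumour in Cy5 and below 0 with tumour in Cy3. At 72 h the circles of Ndufb10, Ndufv2 and Ndufb4 stand apart. They lie at 0.92, 0.98 and -1.04 in replicate 3 against 0.074, 0.034 and 0.043 in replicate 4.

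At 72 h, 7 respiratory chain genes lay above 0 at an unadjusted p of 0.05, where the background was 5.33% of genes, and 1 below, where it was 3.42%. The 7 were Ndufv2, Ndufb10, Ndufb2, Ndufa10 and Ndufc1 of complex I and Cox8a and Cox8b of complex IV, and the 1 below was Ndufb4. The fitted value of Cox8b, 0.46, lies above both of its replicates, 0.34 and 0.20, through the dye term, and their plain mean was 0.27. In all of them the value of replicate 3 was larger in size than that of replicate 4. With replicate 3 as the lone sample at 72 h, assumed to vary like the other groups, 284 of 4722 genes passed the adjusted test, 5 of them respiratory chain genes, whereas with replicate 4 alone 1 gene passed and it was not a respiratory chain gene. The standard deviation over the respiratory chain genes was 0.40 in replicate 3 and 0.088 in replicate 4, and over all genes tested 0.67 and 0.23.

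Complex II, the succinate dehydrogenase of the citric acid cycle, was measured through Sdhd alone, the membrane anchor that binds ubiquinone. Sdhd had 0.16, -0.13, -0.12, -0.15 and -0.27 at 18 h, so 4 of 5 replicates lay below 0, and -0.55 and 0.028 at 72 h. At 192 h it had 0.29, -0.18, -0.042 and -0.10. In both polyA replicates 1, which have the tumour sample in Cy5 only, the value was above 0, and in both polyA replicates 2, which have it in Cy3 only, it was below. The fitted values were -0.10 (SE 0.097) at 18 h, -0.26 (SE 0.15) at 72 h and -0.0082 (SE 0.11) at 192 h, with adjusted p of 0.972 and 0.999 at the first and last.

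In complex III, which passes electrons from ubiquinol to cytochrome c, Uqcrc1 had the highest fitted value at 18 h among genes with all replicates. This core subunit gave 0.0028, 0.25, -0.013, 0.18 and 0.55, with a fit of 0.19 (SE 0.094, n = 5, unadjusted p = 0.0622). At 192 h its replicate averages were 0.023, -0.061, 0.050 and -0.062. In replicate 4 at 192 h Uqcrc1 read 0.34 with tumour in Cy5 and -0.47 with tumour in Cy3, so that average joins opposite readings. In replicate 5 at 18 h it read 0.20 with tumour in Cy5 and 0.89 with tumour in Cy3. Uqcrh, the hinge protein, was the lowest at 18 h with 0.068, 0.030, -0.43, -0.094 and 0.023, and its fit of -0.080 (SE 0.097) became 0.0070 without replicate 3. Uqcrfs1, the Rieske iron-sulphur protein, lay below 0 in all 4 replicates at 192 h with -0.10, -0.11, -0.18 and -0.062, a fit of -0.11 (SE 0.090). Uqcrq, a small subunit of the complex, was also below 0 in all 4, with -0.021, -0.17, -0.14 and -0.033. With Cox7a2 and Atp5a1 these made 4 of 49 respiratory chain genes below 0 in every replicate at 192 h, where the background was 4.78%. Uqcrb, which binds ubiquinone, had the highest fit at 192 h, 0.034, from 0.19, -0.067, -0.17 and 0.19, and its interval of 0.34 to either side held 0.

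In complex IV, cytochrome c oxidase, the smallest p at 72 h was that of Cox8a, the form of a small subunit found in most tissues. Cox8a had 0.72 in replicate 3 and 0.28 in replicate 4. The fitted value of 0.50 (SE 0.17, n = 2, unadjusted p = 0.0110, adjusted p = 0.519) was 0.22 without array 447. In replicate 3 at 72 h Cox8a read 0.23 on array 445 and 1.22 on array 447. The 4 replicates of Cox8a at 192 h were 0.15, 0.17, -0.11 and -0.043. In the authors' processed log ratios, whose base is unknown, its fit at 72 h was 0.41. At 18 h it had 0.40, 0.055, -0.011, -0.25 and 0.12, values on both sides of 0, and a fit of 0.062. Its paralog Cox8b, the isoform of heart and skeletal muscle in the mouse, had 0.57, 1.03, 0.20 and 0.18 in the 4 replicates measured at 18 h and 0.34 and 0.20 at 72 h. At 192 h it had -0.089, -0.30 and 0.035 with no value in replicate 2, and its fitted 0.14 lies above these values because the missing replicate and the dye term, shared by all times, enter the fit.

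The paralogs Cox7b and Cox7b2 were both measured. Cox7b, the widely expressed isoform, had fits of -0.089 at 18 h and -0.093 at 192 h. Cox7b2, an isoform best known from testis, had 0.60, 0.54 and -0.0049 in replicates 1, 4 and 5 at 18 h, with no value in replicates 2 and 3, and -0.0087, -0.15, 0.027 and -0.98 at 192 h. The difference between these times was -0.61 (SE 0.27, unadjusted p = 0.0460), the largest in size of the respiratory chain genes. Without replicate 4 at 192 h it was -0.38. In that replicate Cox7b2 read -1.98 on array 509, with tumour in Cy5, and 0.017 on array 510, with tumour in Cy3. Cox7a2, a small nuclear-encoded subunit, had -0.10, -0.068, -0.13 and -0.060 at 192 h. Cox5b, which binds zinc, had the lowest fit of the complex at 18 h, -0.14 (SE 0.11), from -0.20, 0.066, -0.57, 0.0018 and 0.030. Cox6b1, on the face toward cytochrome c, had the highest at 192 h among genes with all replicates, 0.065 (SE 0.090), from 0.17, -0.040, 0.11 and 0.019.

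In complex V, the ATP synthase, Atp5k had the highest fit at 18 h. This small subunit e of the membrane part had 0.45, 0.067, 0.55, -0.083 and 0.0054, with a fit of 0.22 (SE 0.12, n = 5, unadjusted p = 0.0855), and at 192 h 0.33, -0.12, -0.12 and -0.20. Atp5e, the epsilon subunit of the central stalk, had the lowest fit at 18 h, -0.10, and the highest at 192 h, 0.093 (SE 0.11). Its replicates at 18 h were -0.27, -0.17, 0.22, -0.30 and 0.0044. At 192 h all 4 lay above 0 with 0.17, 0.012, 0.18 and 0.013, where the background for this was 3.19%. Replicate 2 at 192 h averaged -0.36 and 0.38 on arrays 309 and 317, both with tumour in Cy3. Replicate 4 at 192 h averaged 0.11 and -0.080 on arrays 509 and 510. Atp5a1, the alpha subunit of the catalytic head, had 0.23, -0.12, -0.14, 0.22 and 0.17 at 18 h and -0.0037, -0.13, -0.032 and -0.10 at 192 h. Atp5h, subunit d of the outer stalk, was the 1 respiratory chain gene below 0 in all 5 replicates at 18 h, with -0.00090, -0.021, -0.21, -0.057 and -0.042, where the background for this was 2.55%. Its fit was -0.067 (SE 0.085).

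Between 192 h and 18 h the respiratory chain genes had a median difference of -0.070, against 0.0021 over all genes tested, and 17 of 50 lay above 0, where the background was 50.5%. The intervals of 2 genes, Ndufb11 and Cox7b2, left out 0, which is 2 below at an unadjusted p of 0.05 with a background of 1.18%, and 0 above with a background of 1.16%. Between 192 h and 72 h the median was -0.14 against -0.047, and 15 of 50 lay above 0 with a background of 42.6%. At an unadjusted p of 0.05, 4 genes lay below in that difference (Ndufb10, Ndufb2, Ndufv2 and Cox8a, background 3.76%) and 1 above (Ndufb4, background 2.61%). For 72 h minus 18 h the median was 0.028 against 0.050, with 30 of 50 above 0 and a background of 57.1%. Without background subtraction this median turned to -0.0245, and with the replicate number as a block it was 0.0711. In this difference 3 genes lay above (Ndufv2, Cox8a and Ndufb2, background 3.99%) and 2 below (Ndufb4 and Ndufb11, background 2.56%). The first 2 differences share the 192 h samples, and the last shares its samples with both, so the 3 sets of values are not independent of each other.

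**Figure D4:**
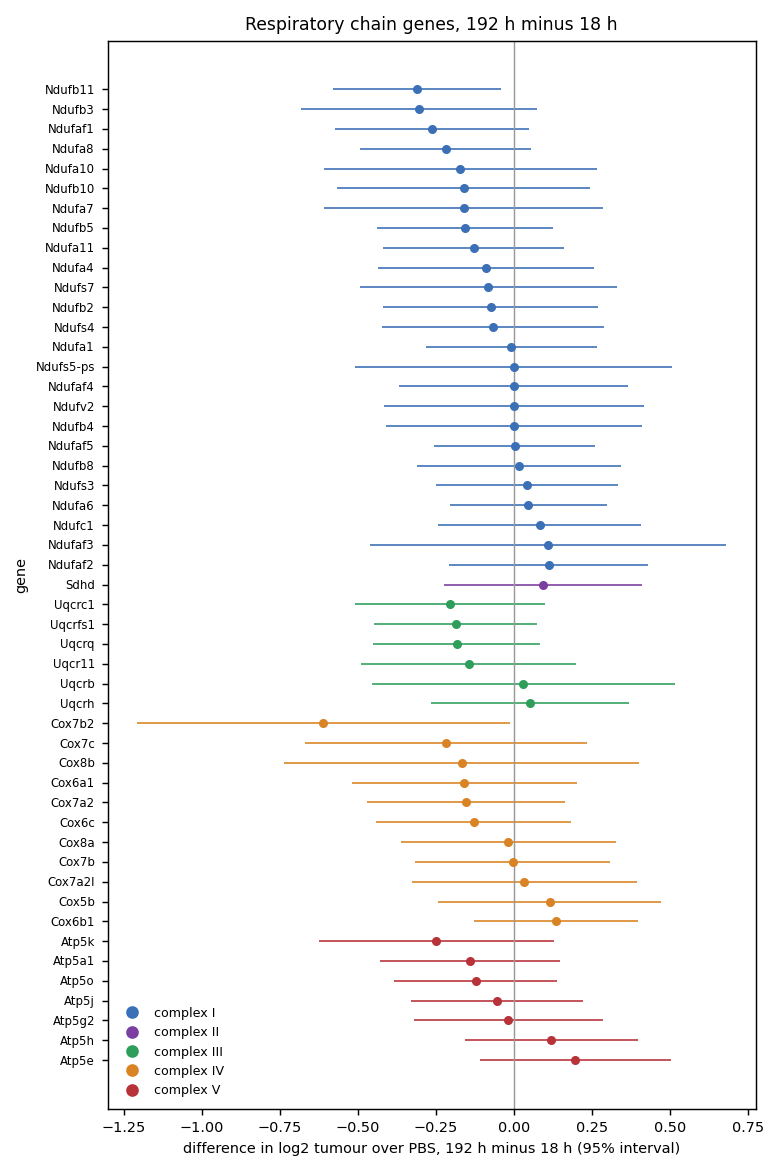
Fitted difference in log2 tumour over PBS, 192 h minus 18 h, with 95% intervals, for the 50 tested respiratory chain genes ordered within each complex. The points lie mostly left of 0, 33 against 17, and the intervals of Ndufb11 and Cox7b2 alone leave out 0.

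The dye that carried the tumour sample moved with the sign of these medians. At 192 h the array medians of the respiratory chain genes lay above 0 on all 3 arrays with tumour in Cy5, from 0.0067 to 0.075, and below 0 on all 4 with tumour in Cy3, from -0.20 to -0.033. At 72 h they were 0.13 and 0.17 with tumour in Cy5, and -0.034 and 0.019 with tumour in Cy3. At 18 h there was no such order, with 3 of 4 arrays above 0 in Cy5 and 4 of 6 in Cy3. Over all genes tested the medians at 192 h ran from -0.0077 to 0.032 in Cy5 and from -0.038 to -0.018 in Cy3. In replicate 3 at 192 h, 16 of 45 genes measured in both orientations were below 0 in both and 2 were above 0 in both, while of 3921 genes tested 972 were below and 919 above in both. In replicate 4 at 192 h, 9 of 48 had the same sign in both orientations, 18.8%, against 35.9% of all genes tested. The part of the dye in the shift at 192 h was not tested beyond the dye term in the fit. With total RNA replicates alone, 11 of 45 genes lay above 0 at 192 h.

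**Figure D5:**
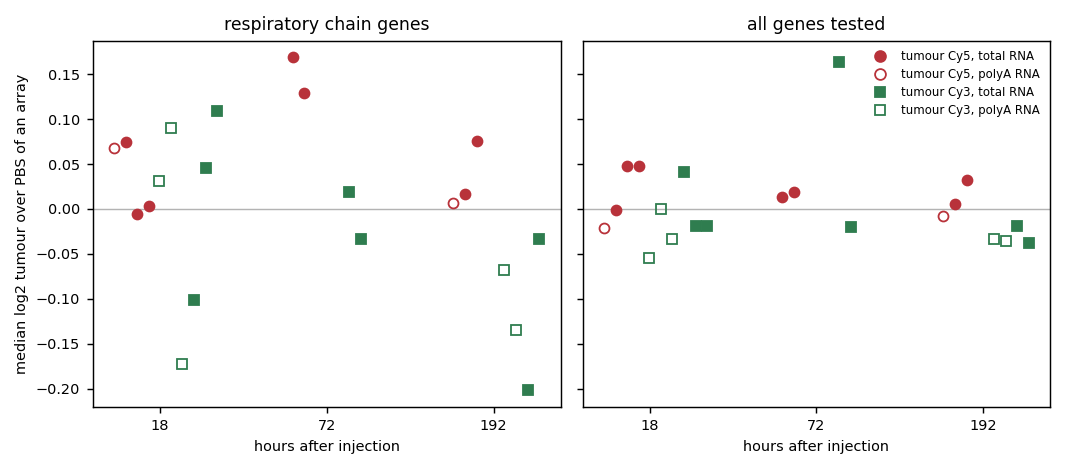
Median log2 tumour over PBS of each array against hours after injection, for the respiratory chain genes (left) and all genes tested (right), with circles for tumour in Cy5, squares for tumour in Cy3, and open symbols for polyA RNA. At 192 h all 3 circles of the respiratory chain genes lie above 0 and all 4 squares below it.

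Genes that build, feed or regulate the chain also gave 0 calls. Of 7 tested assembly factors of complex I, 0 passed the adjusted test at any time, and 2 of 7 lay above 0 at 18 h and 3 of 7 at 192 h. This list shares Ndufaf genes with the respiratory chain genes above. Among 6 assembly factors of complexes III and IV, 0 passed, and 3 lay above 0 at 18 h and 1 at 192 h. Cox17, a copper chaperone for complex IV, had a difference of -0.20 (SE 0.13) between 192 h and 18 h, with -0.089, -0.22, -0.19 and -0.22 at 192 h, and Ttc19, which acts in complex III assembly, had -0.19 (SE 0.17). The 2 tested assembly factors of complexes II and V also gave 0 calls: Sdhaf2, which adds the flavin to Sdha, had 0.38 (SE 0.17, unadjusted p = 0.0510) and Sdhaf4 -0.0083 (SE 0.19).

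Among 7 tested genes of cytochrome c and other electron carriers, 0 passed, and 2 lay above 0 at 18 h and 4 at 192 h. Gpd2, the mitochondrial glycerol phosphate dehydrogenase, had a difference of 0.25 (SE 0.21), and Cyc1, the cytochrome c1 of complex III, had -0.22 (SE 0.18). The citric acid cycle and pyruvate dehydrogenase had 8 tested genes, of which 0 passed, and 7 lay above 0 at 18 h and 2 at 192 h, with medians of 0.084 and -0.047. Idh3a, a subunit of isocitrate dehydrogenase, had 0.24, 0.94, 0.10, 0.18 and -0.12 at 18 h and -0.23, 0.033, 0.082 and -0.19 at 192 h, a difference of -0.34 (SE 0.17, unadjusted p = 0.0691). Sucla2, of succinyl-CoA ligase, lay above 0 in all 5 replicates at 18 h, with 0.14, 0.027, 0.12, 0.16 and 0.0013, and its difference was -0.18 (SE 0.12). Idh2, the mitochondrial NADP-dependent isocitrate dehydrogenase, was the 1 gene of this list with an unadjusted p under 0.05 at 192 h and is given after its values were seen. Its fit there was 0.40 (SE 0.13, unadjusted p = 0.00865, adjusted p = 0.999), and its difference from 18 h was 0.23 (SE 0.18). Of 4 mitochondrial carriers 0 passed, with differences of -0.096 (SE 0.20) for the phosphate carrier Slc25a3 and 0.065 (SE 0.21) for Slc25a27. Of 4 transcriptional regulators of respiration 0 passed, with -0.13 (SE 0.13) for Tfb2m, a mitochondrial transcription factor, and 0.10 (SE 0.17) for the nuclear receptor Esrra.

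Cell type markers were read beside these values. At 192 h, 4 of 7 tested neuron markers, 2 of 6 of dopamine neurons, 4 of 6 of oligodendrocytes, 1 of 2 of astrocytes and 2 of 3 of microglia and macrophages lay above 0, and 0 passed the test at any time. At 18 h the same lists had 1 of 7, 3 of 6, 3 of 6, 1 of 2 and 2 of 3 above 0, and at 72 h 1 of 7, 5 of 6, 2 of 6, 2 of 2 and 1 of 3. The median fit of the neuron markers was -0.019 in the earliest group, -0.15 at 72 h and 0.028 in the latest. The median of the neuron markers ran from -0.25 to 0.14 over the replicates at 18 h and from -0.12 to 0.060 at 192 h. Their part in the values of the respiratory chain genes was not tested, and no marker of endothelium or blood cells was tested.

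Many nuclear genes of the chain carry sites for the factors NRF1 and GABP near their start, so the promoters of some genes described above are shown. Each is the 250 bases before the start of the gene in RefSeq (build GRCm38.p6), printed on the strand of the gene, with matches in capitals to the NRF1 motif, which is GCGCA, any base and GCGC, or to the GABP motif CCGGAAG, on either strand. Ndufb11 is shown because its replicates at 18 and 192 h do not overlap, Ndufaf1 for its value at 18 h, Atp5k as the highest of complex V at 18 h, Sdhd as the single gene of complex II, and Ndufb4 for its matches. They lie at chrX:20617620-20617869 (minus strand), chr2:119662835-119663084 (minus), chr5:108434400-108434649 (minus), chr9:50603850-50604099 (minus) and chr16:37654369-37654618 (minus).
Ndufb11: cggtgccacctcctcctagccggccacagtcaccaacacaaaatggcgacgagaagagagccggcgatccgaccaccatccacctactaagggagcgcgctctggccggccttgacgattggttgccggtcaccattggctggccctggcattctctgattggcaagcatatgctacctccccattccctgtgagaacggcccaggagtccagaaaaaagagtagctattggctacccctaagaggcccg
Ndufaf1: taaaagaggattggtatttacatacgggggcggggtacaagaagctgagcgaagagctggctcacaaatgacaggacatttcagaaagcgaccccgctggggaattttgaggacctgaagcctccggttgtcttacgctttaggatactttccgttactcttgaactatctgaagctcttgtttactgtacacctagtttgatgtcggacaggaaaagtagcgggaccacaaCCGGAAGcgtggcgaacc
Atp5k: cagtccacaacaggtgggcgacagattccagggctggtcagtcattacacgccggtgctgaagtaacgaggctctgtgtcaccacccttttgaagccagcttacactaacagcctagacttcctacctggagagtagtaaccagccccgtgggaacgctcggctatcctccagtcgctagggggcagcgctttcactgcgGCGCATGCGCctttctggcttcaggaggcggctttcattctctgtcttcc
Sdhd: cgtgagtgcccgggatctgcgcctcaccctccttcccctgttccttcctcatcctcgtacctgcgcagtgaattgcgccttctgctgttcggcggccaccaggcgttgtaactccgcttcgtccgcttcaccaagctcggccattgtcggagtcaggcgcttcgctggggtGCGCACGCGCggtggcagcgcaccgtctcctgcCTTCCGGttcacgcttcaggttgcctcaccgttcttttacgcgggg
Ndufb4: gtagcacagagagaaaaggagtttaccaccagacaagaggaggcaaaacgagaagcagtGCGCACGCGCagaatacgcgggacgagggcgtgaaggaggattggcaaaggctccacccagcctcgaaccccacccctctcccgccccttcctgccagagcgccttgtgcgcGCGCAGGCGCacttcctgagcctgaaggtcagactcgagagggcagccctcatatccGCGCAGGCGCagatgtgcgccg

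Ndufb11 had no match to either motif in this window, Ndufaf1 had 1 GABP match, Sdhd had 1 of each, Atp5k had 1 palindromic NRF1 site read on both strands, and Ndufb4 had 3 NRF1 matches. Of the 57 genes, 49 had a promoter entry, and 9 of these (18.4%) held the NRF1 motif against 4.23% of 27025 genes with an entry. The GABP motif was found in 10 (20.4%) against 7.83%, and the YY1 motif AAGATGGC in 1 (2.04%) against 1.83%. No match of one motif overlaps a match of another in the promoters printed. Among tested genes, the 9 with an NRF1 match had a median of 0.059 at 18 h and -0.029 at 192 h, and the 36 without had 0.044 and -0.030. At 72 h the genes with an NRF1 match had a median of -0.10, with 4 of 9 above 0, and those without had 0.12, with 27 of 36 above 0. For 72 h minus 18 h, 1 of 9 with a match and 27 of 36 without lay above 0. The 9 are Atp5g2, Atp5h, Atp5k, Cox6a1, Ndufa11, Ndufa8, Ndufaf4, Ndufb4 and Sdhd. In this order they had -0.27, -0.28, 0.21, -0.0475, 0.049, 0.011, -0.38, -1.04 and -0.55 in replicate 3 at 72 h. In replicate 4 at 72 h they had 0.069, 0.047, -0.028, 0.20, -0.037, 0.024, 0.042, 0.043 and 0.0275. For the GABP motif the medians were -0.068 at 18 h over the 10 genes with a match and 0.062 over the 35 without, and -0.030 and -0.029 at 192 h. At 72 h they were -0.0021 and 0.11, and for 192 h minus 18 h 0.046 and -0.081. A match is a description of letters, and no test was made of these groups.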

How the data were processed

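The members and all gene lists were chosen with earlier results of these data known. The scanner files hold spot intensity values in both channels with the local background subtracted, per the file headers, and 0 was taken as not measured. A table deposited by the authors holds log ratios whose base is unknown (a score here), used as an alternative on its own scale. Which channel held which dye was read from the match of the scanner ratios to that table. The 7 arrays numbered below 309 were not used: their brightness by gene had Spearman correlations of 0.023 to 0.15 with the later arrays, against 0.29 to 0.82 for the 21 used. Per scan, log2 ratios were normalised by loess (span 0.3, 4 iterations) in limma 3.58.1 under R 4.3.3, then scans, spots and arrays were averaged within a replicate. A median of 69.0% of the 10080 spots per array had a value in both channels. The dimmest 33.3% of genes were left out, and 3, 2 and 3 replicate values were required at 18, 72 and 192 h. Per-gene least squares with a mean per time and a dye term, limma's moderated variances and Benjamini-Hochberg adjustment gave the tests. Every member was counted, and named with values were the 3 with the smallest p in each comparison, the highest and lowest of each complex at 18 and 192 h among genes with all replicates, paralog pairs, and from each other list the 2 with the smallest p for 192 h minus 18 h. Ndufc1, Uqcrq, Cox7a2, Atp5h, Ndufa10, Cox17's replicates and the core subunits of complex I were chosen after their values were seen. The fit was tested on simulated data. Alternatives covered normalisation, background, filters, scans, the dye term, the choice of arrays and replicates, and a replicate block. Same-numbered replicates of different times were not treated as pairs: the labels do not say what a number shares, and their deviations correlated between -0.11 and 0.32 over 8 pairs (mean 0.089), with 5 above 0.1, against a mean of -0.024 with 8 of 30 above 0.1 for different numbers.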

Additional observations from a re-analysis of the deposited data

Results flagged for a closer look

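In 37 groups of 4 or 5 replicates checked for a value far from the rest, 3 stood apart. For independent groups not picked by their values, chance alone flags about 1 in 20, or 1.85 of 37. Here the genes were picked for a small p or an extreme fit, and some medians share genes, so that rate may not hold. Ndufb3 had 0.7878 in replicate 4 at 18 h, while the other 4 replicates lay between 0.0939 and 0.1503. In that replicate Ndufb3 read 0.16 on array 523 and 1.41 on array 524. Ndufaf2 had 0.495 in replicate 2 at 192 h, a polyA replicate with the tumour sample in Cy3 only, while the other 3 lay between -0.058 and 0.0269. The median of the 5 complex I assembly factors chosen by symbol was -0.1613 in replicate 2 at 18 h, the polyA replicate with the tumour sample in Cy3 only, while the other 4 lay between -0.0139 and 0.0372. In that replicate Ndufaf3 had -1.11 and Ndufaf4 had -0.53. On arrays 361, 369 and 397 of this replicate Ndufaf3 read -0.37, -0.19 and -2.77. Ndufaf4 read -0.86 and -0.20 on arrays 361 and 369 and had no value on array 397. On array 397, 25.7% of the spots had a value in both channels.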

How the results depend on the processing

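No gene passed at 192 h under any alternative, and the median of the respiratory chain genes stayed below 0 at 192 h and above 0 at 18 h under each alternative run, with -0.0448 to -0.0124 and 0.0114 to 0.0540 when each replicate was left out. The cause of the changes below was not tested. With median centring in place of loess, single values crossed 0: Ndufa8 at 192 h to 0.0318, Sdhd to 0.0229 at 18 h and 0.0271 at 192 h, and at 18 h Uqcrh to 0.0076 and Atp5e to 0.0789. Without background subtraction the median at 72 h was 0.0496 and that of 72 h minus 18 h -0.0245, and 8 of 50 genes lay above 0 at 192 h, while Uqcrh at 18 h became 0.0374, Uqcrb and Cox6b1 at 192 h -0.0762 and -0.0105, and for 192 h minus 18 h Sdhaf4 0.0256, Gpd2 -0.0118 and Slc25a27 -0.0309. With the first scan only, the medians were 0.0126 at 18 h and 0.0628 at 72 h, Uqcrb at 192 h -0.0025, and Sdhaf4 and Tfb2m 0.1165 and 0.019 for 192 h minus 18 h. With all 28 arrays the median at 72 h was -0.0085 and that of 192 h minus 72 h -0.0504. These 28 include the 7 arrays left out of the main fit for their low brightness correlation. With total RNA replicates only, fewer genes (3356) were tested: 2 passed at 72 h and 1 in each of the differences of 72 h from 18 h and from 192 h, none of them a respiratory chain gene, the median at 18 h was 0.0183, Cox8a at 18 h -0.049, Ndufaf2 -0.0268 at 192 h and -0.0298 for 192 h minus 18 h, and Slc25a3 0.011 for the latter. With probes kept apart, Ndufb4 for 72 h minus 18 h was 0.0425. The authors' processed log ratios, whose base is unknown, gave medians of 0.0122 at 18 h, 0.0126 at 72 h and -0.0362 for 192 h minus 72 h. In them Ndufv2 was -0.0197 at 72 h and 0.0285 for 192 h minus 72 h, Ndufb4 0.0963 for 72 h minus 18 h, Uqcrh 0.0046, Cox5b 0.092 and Atp5e 0.0175 at 18 h, Sdhd 0.025, Uqcrb -0.0381 and Cox6b1 -0.0139 at 192 h, and Sdhaf4 0.0081 and Gpd2 -0.0364 for 192 h minus 18 h.

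With the replicate number as a replicate block, 1 gene passed for 192 h minus 18 h and 6 in the difference of 192 h from 72 h, none a respiratory chain gene. The median for 72 h minus 18 h was 0.0711 under the block, Sdhaf4 0.0845 and Esrra -0.1991 for 192 h minus 18 h. It changed no other call.

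Leaving out each replicate in turn, the number of genes that passed ran from 0 to 1 at 18 h, 0 to 284 at 72 h, 0 to 1 for 192 h minus 18 h, 0 to 167 for 72 h minus 18 h, and 0 to 186 in the difference of 192 h from 72 h. The highest counts at and against 72 h came without its replicate 4, and 5 of the 284, 4 of the 186 and 3 of the 167 were respiratory chain genes. The single genes came without replicate 4 at 192 h. The median at 72 h ran from 0.0449 to 0.0872 and that of 72 h minus 18 h from 0.0236 to 0.0638, and 11 to 21 genes lay above 0 at 192 h. Values that crossed 0 were Ndufaf2 at 192 h (-0.0154 to 0.1754) and for 192 h minus 18 h (-0.0209 to 0.1799), Uqcrb (-0.0713 to 0.1059) and Sdhd (-0.0621 to 0.0232) at 192 h, Cox8a (-0.0318 to 0.1404) and Uqcrh (-0.1528 to 0.007) at 18 h, and for 192 h minus 18 h Sdhaf4 (-0.161 to 0.1292), Slc25a27 (-0.1073 to 0.1099), Slc25a3 (-0.1697 to 0.0175) and Esrra (-0.0169 to 0.2007). Dim spots limit what can be read: a value needs signal over background in both channels, and a spot at 0 has none.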
